A study of Homo sapiens with 8 samples.

Results

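D-type cyclins, their kinases CDK4 and CDK6, and the retinoblastoma (RB) family form the machinery by which a cell commits to leave G1. The genes described here were chosen by symbol, CCND1, CCND2, CCND3, CDK4, CDK6, RB1, RBL1 and RBL2. All 8 were present once on the array, among 22458 genes with a symbol. Their RNA was measured in the cell line NCH644, derived from a glioblastoma and kept in neurosphere culture for its stem-like cells, after 24 h of treatment. The groups were OTX015 at 5 µM, panobinostat at 5 µM, the combination of OTX015 at 5 µM with panobinostat at 5 µM, and DMSO as the vehicle, with 2 arrays in each of the 4 groups. OTX015 inhibits the BET bromodomain proteins, which read acetylated histones, and panobinostat inhibits histone deacetylases. One line was studied at 1 dose of each drug and 1 time. The series text calls the duplicates biological without saying whether they came from separate cultures, so the p-values measure the spread between these arrays, which may be technical.

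In textbook terms, mitogens raise D cyclins, which bind CDK4 or CDK6, and the active kinase phosphorylates RB1 and its relatives RBL1 (p107) and RBL2 (p130). Unphosphorylated RB1 holds the activating E2F transcription factors, while RBL1 and RBL2 work mainly with E2F4 and E2F5 and with the MuvB core in the repressive DREAM complex. Loss of RB1, gain of CDK4, CDK6 or D cyclins, and loss of the CDK inhibitor CDKN2A are recurrent in glioblastoma. The RNA levels given here do not report phosphorylation or protein.

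Values are deposited log2 expression after RMA, a normalization that sets the arrays to a common scale. Array medians lay between 3.869 and 4.004, and duplicates correlated across genes at r = 0.9903 to 0.993. All 8 members averaged above the background level of 3.03 in all 4 groups, below which 95% of the group means of 354 genes for olfactory receptors lay. Changes are log2 differences ± standard error (SE) from limma fitted to all genes, and "passed" means an adjusted p under 0.05 (Benjamini-Hochberg over 22458 genes). In bulk RNA, fewer cells of a type and less RNA per cell cannot be told apart. All 7 measured neural or glioma stem markers, among them SOX2 and NES, averaged above background in each group. Their mean level was 8.02 to 8.03 under OTX015, 6.97 to 6.99 under panobinostat, 6.42 to 6.55 under the combination and 8.33 to 8.36 in DMSO. Within this list SOX9 went the other way, at 6.57, 7.04, 7.26 and 5.78 in the same order. OLIG2 averaged 9.35 under OTX015, 10.02 under panobinostat, 9.03 under the combination and 9.90 in DMSO. SOX2 and NES averaged 10.64 and 9.33 under OTX015, above 10.10 and 8.44 in DMSO, and were lower with panobinostat. PROM1, FABP7 and MSI1 averaged lower than DMSO in each drug group. The mean of 5 neuronal markers was 3.92 to 3.98 under OTX015, 5.6 on both panobinostat arrays, 5.88 to 5.95 under the combination and 3.74 to 3.75 in DMSO. In that list SYN1, SNAP25 and STMN2 averaged 9.04, 6.78 and 5.57 under panobinostat, and 4.68, 5.64 and 2.22 in DMSO. RBFOX3 averaged 3.77 under panobinostat and 3.61 in DMSO, and SYT1 was above background under the combination only. The mean of 6 microglia and macrophage markers was 3.02 on both OTX015 arrays, 3.83 to 3.91 under panobinostat, 3.98 to 4.10 under the combination and 2.65 to 3.09 in DMSO. Of these 6, CD68 and CSF1R averaged above the background level in all 4 groups, and PTPRC, AIF1, ITGAM and CX3CR1 in none. CD68, a lysosomal protein gene, averaged 6.35 under OTX015, 9.46 under panobinostat, 10.44 under the combination and 5.53 in DMSO. CSF1R averaged 3.62 under OTX015, 5.87 under panobinostat and 5.42 under the combination, and read 2.86 and 4.19 in DMSO. The astrocyte list mean was 3.996 to 4.105 under OTX015, 3.761 to 3.885 under panobinostat, 3.81 to 3.89 under the combination and 4.275 to 4.381 in DMSO. The oligodendrocyte list mean was 3.157 to 3.183, 3.375 to 3.439, 3.33 to 3.406 and 3.621 to 3.671 in the same order. In the astrocyte list SLC1A3 averaged 3.64 under panobinostat and 3.70 under the combination, against 6.53 in DMSO. S100B averaged 8.61 and 8.16 against 9.08, GFAP 3.455 and 3.66 against 3.57, and ALDH1L1 3.06 and 3.46 against 2.86. AQP4 and SLC1A2 were under the background level in all 4 groups. The list means of the stem, neuronal, astrocyte and microglia or macrophage markers moved with the panobinostat groups, though not every gene of each list did. Their part in the results below was not tested. Of 5 endothelial markers, CLDN5 averaged above background in all 4 groups and PECAM1, VWF, CDH5 and TEK in none, with list means of 2.46 to 2.56 under OTX015, 2.34 to 2.36 under panobinostat, 2.41 to 2.55 under the combination and 2.50 to 2.54 in DMSO.

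Promoter sequence helps place the members, since RBL1 is itself a textbook E2F target and CDK4 a textbook MYC target. RefSeq promoter windows (GRCh38.p14) were matched for 6 of the 8 members, 10 windows in all, and CCND1 and CCND2 had none. The 250 bases before the annotated start were searched on both strands. The E2F letters searched were TTTCGCGC, TTTGGCGC, TTTCCCGC and TTTGCCGC, and the E-box letters, to which MYC with MAX binds, were CACGTG. The windows of RBL1 and CDK4 are shown because they hold matches, and the first window of RBL2 because it is the closest relative of RBL1. Capitals mark E2F letters in RBL1 and E-boxes in CDK4.
RBL1 (chr20:37095998-37096247, minus strand): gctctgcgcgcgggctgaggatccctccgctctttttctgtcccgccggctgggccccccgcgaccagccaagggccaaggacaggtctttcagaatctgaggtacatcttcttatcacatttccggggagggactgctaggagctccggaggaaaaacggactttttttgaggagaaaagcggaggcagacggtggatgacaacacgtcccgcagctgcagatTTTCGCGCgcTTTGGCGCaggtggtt
CDK4 (chr12:57752311-57752560, minus strand): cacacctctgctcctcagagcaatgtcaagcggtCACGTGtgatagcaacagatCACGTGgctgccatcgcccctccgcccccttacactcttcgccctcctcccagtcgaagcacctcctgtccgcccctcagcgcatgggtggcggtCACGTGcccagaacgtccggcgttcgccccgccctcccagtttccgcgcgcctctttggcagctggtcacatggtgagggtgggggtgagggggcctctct
RBL2 (chr16:53434221-53434470, plus strand): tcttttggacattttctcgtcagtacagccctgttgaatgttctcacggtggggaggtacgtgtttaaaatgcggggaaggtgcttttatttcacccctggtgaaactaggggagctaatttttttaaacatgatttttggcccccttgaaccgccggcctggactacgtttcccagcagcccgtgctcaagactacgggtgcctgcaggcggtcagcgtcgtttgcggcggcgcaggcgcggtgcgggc

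The RBL1 window held 2 E2F matches, which began 26 and 16 bases before the gene start. Among all 35116 windows of the same length, 2.79% held at least 1 E2F match and 0.122% held 2 or more. The CDK4 window held 3 E-boxes, which began 216, 196 and 101 bases before the start. An E-box was present in 6.34% of all windows, and 0.0797% had 3 or more. The cutoffs of 2 and 3 equal the counts found in these windows, which are shown because they hold matches. The shares at those cutoffs are therefore descriptive and not a test. Neither RBL2 window, none of the 3 CCND3 windows, neither CDK6 window and not the listed RB1 window held either set of letters. The RB1 window (chr13:48476200-48476449, plus strand, 36.8% G or C) was the only one listed for that gene. Whether it lies at the main RB1 start was not checked, and no other RB1 start was searched. A match is a description of the letters and not a measured binding site.

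Against DMSO, the RNA of cyclin D1, cyclin D2, CDK6, CDK4 and RBL1 was lower under panobinostat and under the combination, and RB1 was higher. Cyclin D3 and RBL2 did not pass in either comparison with DMSO. Against OTX015 alone, the combination change did not pass for CDK4 (-0.07, adjusted p = 0.768) or RB1 (-0.16, adjusted p = 0.505). Under panobinostat 5 of the 8 members fell and 1 rose, and 37.2% of all genes passed (17.9% lower and 19.4% higher). Under the combination 5 fell and 1 rose, where 37.5% of all genes passed (18.4% lower and 19.2% higher). Under OTX015 alone 1 member rose and 1 fell, where 16.5% of all genes passed (7.97% higher and 8.49% lower). Drug and DMSO arrays did not overlap for 7 members under OTX015, 6 under panobinostat and 8 under the combination, against 53.7%, 66.6% and 64.4% of all genes. The median change of the 8 members was -0.38 under OTX015, -0.93 under panobinostat and -0.74 under the combination, beside medians of -0.02, -0.06 and 0.01 over all genes. The comparisons with DMSO share its 2 arrays.

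**Figure D1:**
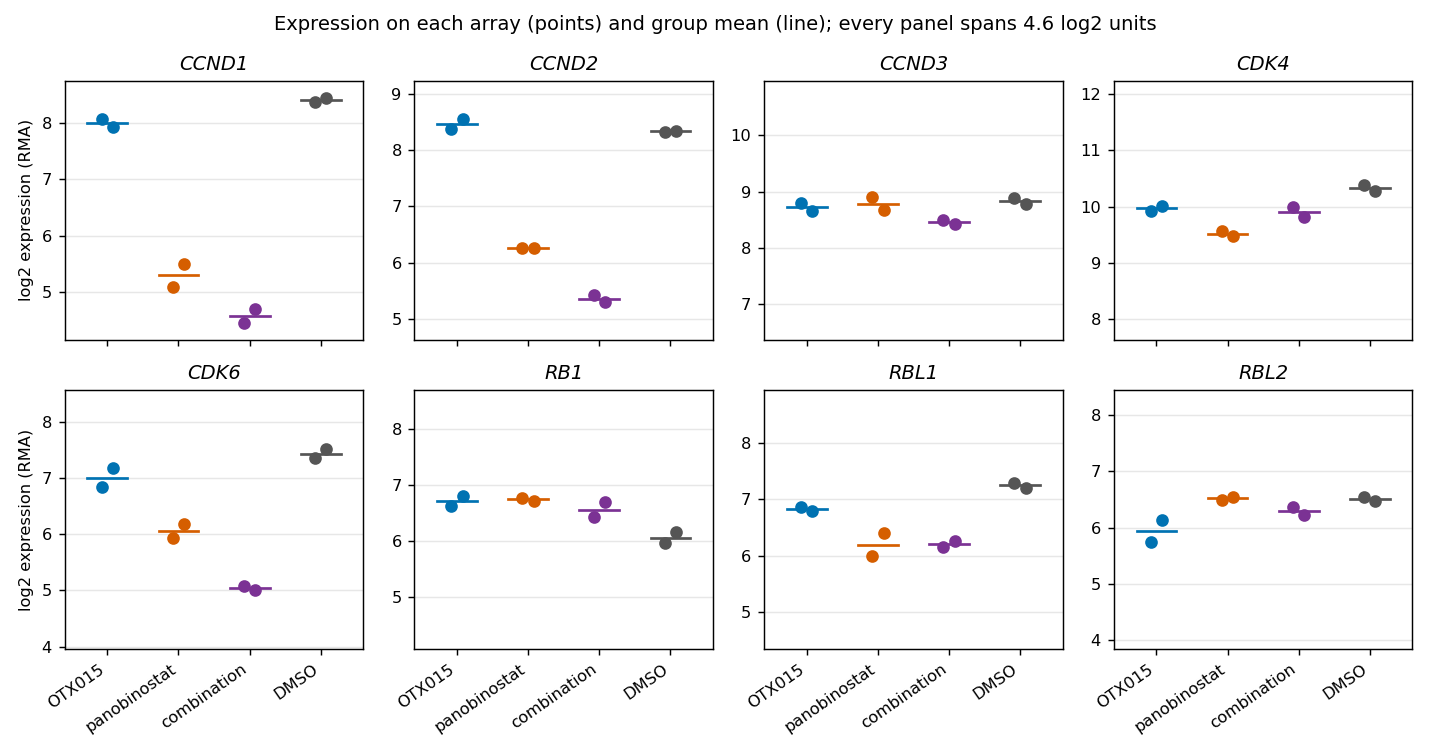
Log2 expression of the 8 members on every array, with OTX015, panobinostat, combination and DMSO from left to right (points, arrays; line, group mean of 2 arrays; all panels span the same log2 range). CCND1, CCND2 and CDK6 were lowest on the combination arrays, and CCND3 lay between 8.43 and 8.90 on all 8 arrays.

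Among the D cyclins, CCND1, the cyclin D1 gene and the D cyclin most often induced by growth factors, had the largest changes. CCND1 read 8.08 and 7.94 under OTX015, 5.10 and 5.49 under panobinostat, 4.45 and 4.70 under the combination, and 8.37 and 8.45 in DMSO. The 4 arrays with panobinostat lay well under the other 4, and both combination arrays lay under both panobinostat arrays. CCND1 fell 8.66-fold under panobinostat (-3.11 ± 0.17, adjusted p = 4.45e-06) and 14.3-fold under the combination (-3.83 ± 0.17, adjusted p = 1.38e-06). By size of fall it ranked 98th of 22458 genes under panobinostat and 52nd under the combination. OTX015 alone gave -0.40 ± 0.17, which did not pass (adjusted p = 0.158), with a 95% interval of -0.78 to -0.02.

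CCND2, the cyclin D2 gene, which is prominent in neural progenitors and glioma stem-like cells, read 8.37 and 8.56 under OTX015, 6.26 and 6.27 under panobinostat, 5.42 and 5.30 under the combination, and 8.33 and 8.34 in DMSO. OTX015 and DMSO arrays lay close together, and the combination was the lowest group. CCND2 fell 4.21-fold under panobinostat (-2.07 ± 0.13, adjusted p = 7.94e-06) and 7.87-fold under the combination (-2.98 ± 0.13, adjusted p = 1.31e-06). Its change under OTX015 alone was 0.13 ± 0.13, with an interval of -0.16 to 0.42 (adjusted p = 0.574).

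CCND3, the cyclin D3 gene, a partner of the same kinases that is widely expressed in blood cells, read 8.80 and 8.65 under OTX015, 8.90 and 8.67 under panobinostat, 8.49 and 8.43 under the combination, and 8.88 and 8.77 in DMSO. The OTX015 and panobinostat arrays overlapped the DMSO arrays, and both combination arrays lay below them. None of the comparisons with DMSO passed. The OTX015 change was -0.10 (interval -0.42 to 0.21), the panobinostat change -0.04 (-0.36 to 0.27) and the combination change -0.37 (-0.68 to -0.05). The last had an adjusted p of 0.0673, and passed with arrays centred on their medians (adjusted p = 0.0446), with the lowest 25% of genes left out (adjusted p = 0.0482), with the replicate block (adjusted p = 0.0461) and with an intensity trend and robust moderation (adjusted p = 0.0129). The falls of CCND1 and CCND2 under panobinostat and under the combination lie outside the CCND3 intervals for the same comparisons.

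CDK4, a catalytic partner of the D cyclins, read 9.92 and 10.01 under OTX015, 9.56 and 9.48 under panobinostat, 9.99 and 9.81 under the combination, and 10.39 and 10.27 in DMSO. The DMSO arrays were the highest and the panobinostat arrays the lowest, and OTX015 overlapped the combination. CDK4 fell 1.75-fold under panobinostat (-0.81 ± 0.13, adjusted p = 0.00124). Under the combination it fell 1.35-fold (-0.43 ± 0.13, adjusted p = 0.0296), a call lost without DMSO replicate 1 (adjusted p = 0.124), DMSO replicate 2 (adjusted p = 0.0521) or combination replicate 2 (adjusted p = 0.156), and with only the groups compared (adjusted p = 0.0757). OTX015 alone gave -0.36 ± 0.13 (adjusted p = 0.103), which passed after quantile normalization (adjusted p = 0.0448) and with an intensity trend and robust moderation (adjusted p = 0.0116).

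CDK6, the other kinase of the pair, read 6.83 and 7.18 under OTX015, 5.94 and 6.18 under panobinostat, 5.07 and 5.01 under the combination, and 7.36 and 7.51 in DMSO. The 4 groups did not overlap and stood in the order combination, panobinostat, OTX015, DMSO from low to high. CDK6 fell 2.59-fold under panobinostat (-1.37 ± 0.16, adjusted p = 0.000205) and 5.24-fold under the combination (-2.39 ± 0.16, adjusted p = 8.41e-06). The step between OTX015 and DMSO did not pass (-0.43 ± 0.16, adjusted p = 0.115).

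**Figure D2:**
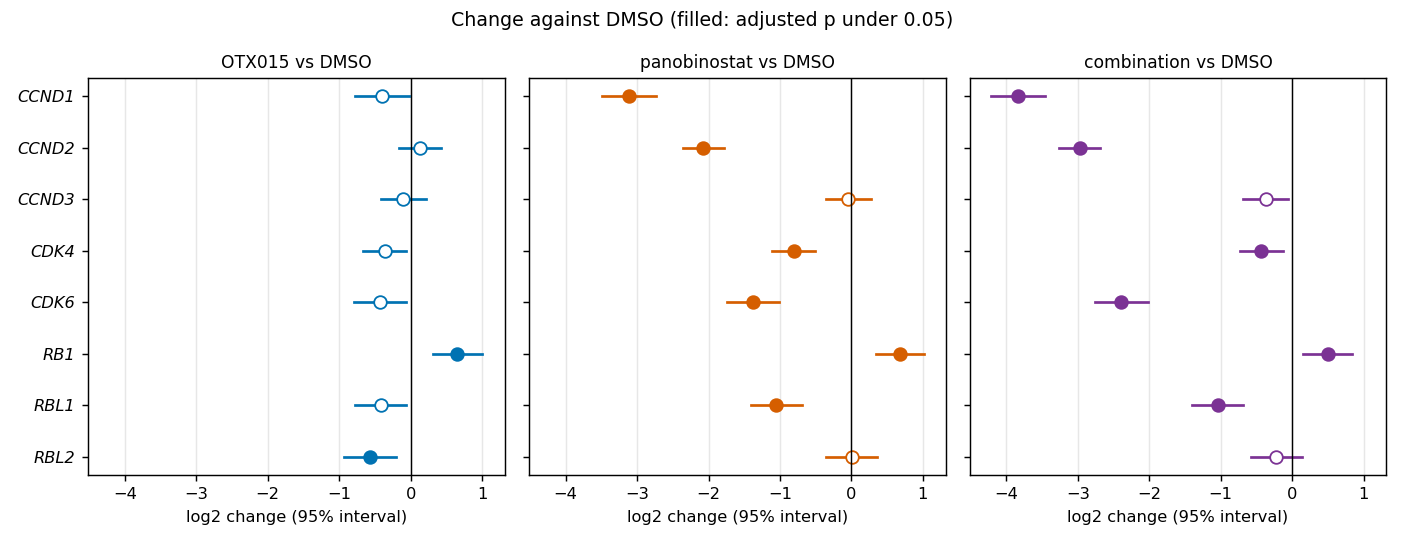
Log2 change of each member against DMSO with its 95% interval, for OTX015, panobinostat and the combination (filled points passed adjusted p under 0.05). Changes ran from -0.57 to 0.65 under OTX015, from -3.11 to 0.68 under panobinostat and from -3.83 to 0.50 under the combination.

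In the RB family, RB1, the founding tumour suppressor, was the only member that rose in all 3 drug groups. RB1 read 6.62 and 6.81 under OTX015, 6.77 and 6.71 under panobinostat, 6.42 and 6.69 under the combination, and 5.97 and 6.16 in DMSO. Every drug array lay above both DMSO arrays, and the 3 drug groups overlapped one another except panobinostat and the combination. RB1 rose 1.57-fold under OTX015 (0.65 ± 0.15, adjusted p = 0.0192), 1.6-fold under panobinostat (0.68 ± 0.15, adjusted p = 0.00643) and 1.41-fold under the combination (0.50 ± 0.15, adjusted p = 0.0284). The OTX015 call was lost without DMSO replicate 1 (adjusted p = 0.0956), OTX015 replicate 1 (adjusted p = 0.0526) or OTX015 replicate 2 (adjusted p = 0.121). The combination call was lost without DMSO replicate 1 (adjusted p = 0.137) or combination replicate 2 (adjusted p = 0.166), with arrays centred on their medians (adjusted p = 0.0502) and with only the groups compared (adjusted p = 0.0675). The panobinostat call held under each alternative run, at adjusted p up to 0.0423.

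RBL1, which encodes p107 and accumulates in cycling cells, read 6.87 and 6.79 under OTX015, 5.99 and 6.40 under panobinostat, 6.16 and 6.25 under the combination, and 7.30 and 7.20 in DMSO. The DMSO arrays were highest, OTX015 lay between, and the panobinostat and combination arrays overlapped. RBL1 fell 2.08-fold under panobinostat (-1.05 ± 0.16, adjusted p = 0.00081) and 2.06-fold under the combination (-1.04 ± 0.16, adjusted p = 0.000819). OTX015 alone gave -0.42 ± 0.16 (adjusted p = 0.118).

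RBL2, which encodes p130, the family member typical of quiescent cells, read 5.74 and 6.15 under OTX015, 6.49 and 6.55 under panobinostat, 6.37 and 6.22 under the combination, and 6.55 and 6.48 in DMSO. The OTX015 arrays were the lowest, the combination arrays lay between, and the panobinostat and DMSO arrays overlapped. RBL2 fell 1.49-fold under OTX015 (-0.57 ± 0.16, adjusted p = 0.0409), the only fall among the members that passed under OTX015 alone. CCND1 (-0.40), CDK4 (-0.36), CDK6 (-0.43) and RBL1 (-0.42) also lay below DMSO without passing (adjusted p = 0.103 to 0.158). The RBL2 call was lost in 10 of 15 alternatives. These were leaving out DMSO replicate 1 (adjusted p = 0.139), DMSO replicate 2 (adjusted p = 0.106) or OTX015 replicate 1 (adjusted p = 0.22), either panobinostat array (adjusted p = 0.0658) or either combination array (adjusted p = 0.0551), and also with the replicate block (adjusted p = 0.0522), with arrays centred on their medians (adjusted p = 0.0617) and with only the groups compared (adjusted p = 0.09). Its change was 0.00 under panobinostat (interval -0.36 to 0.36, adjusted p = 0.985) and -0.22 under the combination (interval -0.58 to 0.14, adjusted p = 0.329).

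Adding panobinostat to OTX015 was read from the combination against OTX015. The D cyclin and CDK6 falls were again the largest: CCND1 was 10.8-fold lower (-3.44 ± 0.17, adjusted p = 3.55e-06), CCND2 8.61-fold lower (-3.11 ± 0.13, adjusted p = 2.29e-06) and CDK6 3.9-fold lower (-1.96 ± 0.16, adjusted p = 4.29e-05). RBL1 also fell (-0.63 ± 0.16, adjusted p = 0.0161). In all 4 of 8 members fell and 0 rose, where 30% of all genes passed (14.7% lower and 15.3% higher), and 6 did not overlap, against 61.8% of all genes. The RBL1 call was lost without OTX015 replicate 1 (adjusted p = 0.0853), OTX015 replicate 2 (adjusted p = 0.0586) or combination replicate 1 (adjusted p = 0.0821). CCND3 (-0.27), CDK4 (-0.07), RB1 (-0.16) and RBL2 (0.35) did not pass. RBL2 passed without OTX015 replicate 2 (0.55, adjusted p = 0.0472).

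Adding OTX015 to panobinostat was read from the combination against panobinostat. CCND2 fell 1.87-fold (-0.90 ± 0.13, adjusted p = 0.00526), CDK6 2.02-fold (-1.02 ± 0.16, adjusted p = 0.00765) and CCND1 1.65-fold (-0.72 ± 0.17, adjusted p = 0.0306). These 3 of 8 members compare with 10.4% of all genes passing (6.1% lower and 4.33% higher), and 7 did not overlap, against 55.6% of all genes. The CCND2 call held under each alternative run, at adjusted p up to 0.0436. CDK6 lost its call without panobinostat replicate 2 (adjusted p = 0.0566). CCND1 lost it without either OTX015 array (adjusted p = 0.051), panobinostat replicate 2 (adjusted p = 0.164), combination replicate 1 (adjusted p = 0.157) or combination replicate 2 (adjusted p = 0.0603), and with only the groups compared (adjusted p = 0.075). CDK4 gave 0.38 without passing (adjusted p = 0.106), and passed with an intensity trend and robust moderation (adjusted p = 0.0133), and RBL1 differed by 0.01 (interval -0.35 to 0.37).

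The single drugs were also compared directly. Under OTX015 relative to panobinostat, 5 of 8 members were higher and 1 lower, where 29.3% of all genes passed (13.3% higher and 16% lower), and 6 did not overlap, against 63.8% of all genes. CCND1 was 6.57-fold higher (2.72 ± 0.17, adjusted p = 1.56e-05), CCND2 4.6-fold higher (2.20 ± 0.13, adjusted p = 1.2e-05) and CDK6 1.93-fold higher (0.95 ± 0.16, adjusted p = 0.00234). RBL1 (0.64 ± 0.16, adjusted p = 0.0154) and CDK4 (0.45 ± 0.13, adjusted p = 0.032) were higher and RBL2 was lower (-0.58 ± 0.16, adjusted p = 0.0243). These last 3 calls did not hold when single arrays were left out. RBL1 lost its call without OTX015 replicate 1 (adjusted p = 0.0845), OTX015 replicate 2 (adjusted p = 0.0563) or panobinostat replicate 1 (adjusted p = 0.111). CDK4 lost it without OTX015 replicate 1 (adjusted p = 0.0832), OTX015 replicate 2 (adjusted p = 0.143), panobinostat replicate 1 (adjusted p = 0.0881) or panobinostat replicate 2 (adjusted p = 0.154), and after quantile normalization (adjusted p = 0.0571). RBL2 lost it without OTX015 replicate 1 (adjusted p = 0.153), panobinostat replicate 1 (adjusted p = 0.0815) or panobinostat replicate 2 (adjusted p = 0.112), and with arrays centred on their medians (adjusted p = 0.0682).

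Whether the effect of one drug depended on the other was tested by the interaction, the combination minus OTX015 minus panobinostat plus DMSO. It passed for 3 of 8 members, 1 above 0 and 2 below, where 13.7% of all genes passed (6.32% above 0 and 7.42% below). For CCND2 the interaction was -1.03 ± 0.18 (adjusted p = 0.00854), since OTX015 changed it by 0.13 without panobinostat and by -0.90 with it. For RB1 it was -0.84 ± 0.21 (adjusted p = 0.0332), with rises of 0.65 and 0.68 for the single drugs and 0.50 for both. For CDK4 it was 0.74 ± 0.18 (adjusted p = 0.0319), with -0.36 for OTX015, -0.81 for panobinostat and -0.43 for both. The CCND2 call held without any 1 array, at adjusted p up to 0.0372. RB1 lost its call when any of the other 6 arrays than DMSO replicate 2 and combination replicate 2 was left out (adjusted p = 0.0588 to 0.113). CDK4 lost its call when any of the 7 arrays other than combination replicate 2 was left out (adjusted p = 0.054 to 0.103). For CCND1 (-0.32, interval -0.86 to 0.22) and CDK6 (-0.59, interval -1.11 to -0.07, adjusted p = 0.131) no interaction passed.

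**Figure D3:**
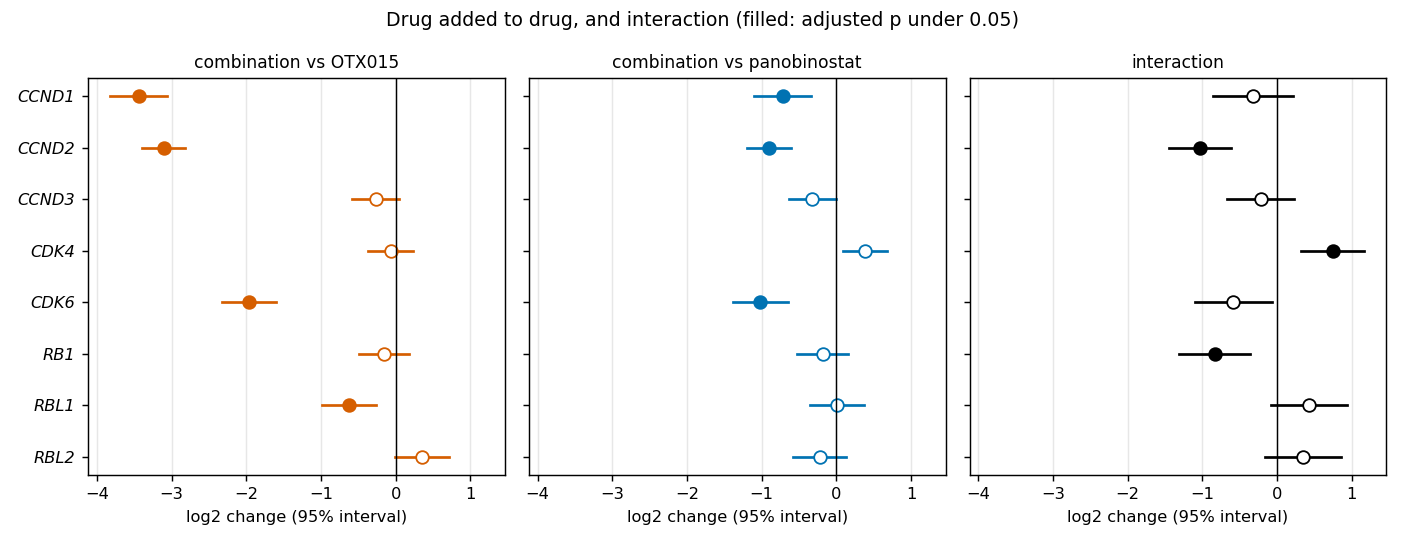
Log2 change of each member, with its 95% interval, for the combination against OTX015, the combination against panobinostat and the interaction (filled points passed adjusted p under 0.05). CCND1, CCND2 and CDK6 passed in both comparisons between drug groups, and CCND2, CDK4 and RB1 passed for the interaction.

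The members were set beside one another by the root mean square difference between their centred log2 values over the 8 arrays. Values were not scaled, so a small number means changes alike in size, and genes that hardly move also score as close. The smallest differences were between CDK4 and RBL1 (0.28) and between CCND3 and RBL2 (0.29). CCND3 and RBL2 moved little, with group means spanning 0.37 and 0.58. Their lowest groups differed, the combination for CCND3 (8.46) and OTX015 for RBL2 (5.94). CCND1 was closest to CCND2 (0.43) and CCND2 to CDK6 after that (0.51). RB1 was farthest from CCND1 (1.82). Among all other named genes, the patterns most like CCND1 were those of CENPF (0.15), a kinetochore gene, TYMS, the thymidylate synthase gene (0.20), and BIRC5, the survivin gene (0.20). For CCND2 they were SLC44A1, a choline transporter gene (0.11), GPRC5B (0.13) and ZMYND11 (0.16). For CDK6 they were WLS, needed for Wnt secretion (0.13), GNB4, a G protein beta subunit gene (0.14), and KLHL42 (0.14). For RBL1 they were SLC16A7, a monocarboxylate transporter gene (0.09), SLC35A4 (0.10) and NOP53 (0.11). The other members spanned less than 1 on the log2 scale between group means and were not matched.

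Around the members, some genes of the E2F family and of its S phase targets fell in each of the 3 drug groups. Of 10 genes in the E2F family list, 5 were lower and 0 higher under OTX015 (median -0.57). Under panobinostat 7 were lower and 0 higher (-0.81), and under the combination 7 lower and 0 higher (-1.16). The list includes TFDP1 and TFDP2, the genes of the E2F dimerization partners. TFDP1 was among the lower genes under OTX015 (-0.78), panobinostat (-1.21) and the combination (-1.37), and TFDP2 under the combination (-0.53). Over the alternatives run, the lower E2F family genes numbered 1 to 6 under OTX015, 4 to 8 under panobinostat and 6 to 7 under the combination. Of all genes, 8.49% fell under OTX015, 17.9% under panobinostat and 18.4% under the combination. E2F1, an activating E2F bound by RB1, read 6.49 and 6.41 under OTX015, 5.06 and 4.81 under panobinostat, 5.16 and 4.51 under the combination, and 6.42 and 6.41 in DMSO. E2F1 fell under panobinostat (-1.48 ± 0.21, adjusted p = 0.000538) and the combination (-1.58 ± 0.21, adjusted p = 0.000352), and its change under OTX015 was 0.04. E2F3 fell in both (-2.42 and -2.43), and under OTX015 (-0.51, adjusted p = 0.0447), a call lost without any 1 of the 8 arrays (adjusted p = 0.0542 to 0.191). E2F5, a partner of p130 and p107, fell under panobinostat (-1.88) and the combination (-1.67), and E2F8, a repressive E2F, fell under OTX015 (-1.46), panobinostat (-0.74, adjusted p = 0.0277) and the combination (-1.08). The E2F8 call under panobinostat was lost without DMSO replicate 1 (adjusted p = 0.123), panobinostat replicate 1 (adjusted p = 0.0966) or panobinostat replicate 2 (adjusted p = 0.0981), and with only the groups compared (adjusted p = 0.0665). Of 23 measured S phase targets, 8 were lower and 1 higher under OTX015, 20 lower and 0 higher under panobinostat, and 21 lower and 0 higher under the combination, with medians of -0.29, -1.22 and -1.61. The lower S phase targets numbered 2 to 10 under OTX015 over the alternatives, and stayed at 20 under panobinostat and 21 under the combination. TYMS fell under panobinostat (-3.22) and the combination (-3.76), as did RRM2, a ribonucleotide reductase subunit gene (-3.03 and -2.67). Their changes under OTX015 were 0.005 for TYMS and -0.11 for RRM2, and neither passed. The licensing gene CDT1 fell under OTX015 (-0.98, adjusted p = 0.00215), panobinostat (-2.14) and the combination (-1.87). The replication gene MCM10 fell under panobinostat (-1.84), the combination (-2.08) and OTX015 (-0.64, adjusted p = 0.0356). The MCM10 call under OTX015 was lost without any 1 of the OTX015 and DMSO arrays (adjusted p = 0.0767 to 0.156).

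The cyclin E and A genes with CDK2, which act after the D cyclins, were mixed. Of 8 genes in that list, 0 were higher and 1 lower under OTX015, and 2 were higher and 3 lower under panobinostat and under the combination. Over all genes, 7.97% were higher and 8.49% lower under OTX015, 19.4% and 17.9% under panobinostat, and 19.2% and 18.4% under the combination. The cyclin A2 gene CCNA2 fell under panobinostat (-4.29) and the combination (-4.42), as did CDC25A, the phosphatase that activates CDK2 (-2.16 and -2.56). CDC25A was also the gene that fell under OTX015 (-0.52, adjusted p = 0.0457), a call lost in 10 of 15 alternatives, every single array left out but OTX015 replicate 2 among them (adjusted p = 0.0602 to 0.241). CDK7 and MNAT1, of the kinase that activates CDKs, rose under panobinostat (0.67, adjusted p = 0.0142, and 0.92, adjusted p = 0.000895) and under the combination (1.09 and 0.75). The CDK7 call under panobinostat was lost without DMSO replicate 2 (adjusted p = 0.088), panobinostat replicate 1 (adjusted p = 0.0736) or panobinostat replicate 2 (adjusted p = 0.0507). CDK2 gave 0.03 under OTX015, 0.16 under panobinostat and -0.32 under the combination, and none passed. The CDK2 change under the combination (adjusted p = 0.0604) passed with arrays centred on their medians (adjusted p = 0.0384) and after quantile normalization (adjusted p = 0.0489). It also passed with the lowest 25% of genes left out (adjusted p = 0.04) and with an intensity trend and robust moderation (adjusted p = 0.00671). The cyclin E gene CCNE1 read 6.38 and 6.17 under OTX015, 5.54 and 5.28 under panobinostat, 5.49 and 5.37 under the combination, and 6.19 and 5.71 in DMSO. Its panobinostat change of -0.54 stood at adjusted p = 0.0499 and was lost in 10 of 15 alternatives (adjusted p = 0.0509 to 0.263 in those). Among single arrays, DMSO replicate 2 was the one that could be left out with the call kept. Under the combination CCNE1 gave -0.52, which did not pass (adjusted p = 0.0555). CCNE2 fell under the combination (-0.75, adjusted p = 0.00337), with 0.48 under OTX015 and -0.39 under panobinostat not passing. These CCNE2 changes and the CCNE1 change under the combination passed with arrays centred on their medians or the lowest 25% of genes left out. They also passed with the replicate block or with an intensity trend and robust moderation.

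The inhibitors of the CDKs moved in both directions. Of 6 measured genes, 4 were higher and 0 lower under OTX015, 3 higher and 2 lower under panobinostat, and 4 higher and 2 lower under the combination. The shares of all genes were 7.97% higher and 8.49% lower under OTX015, 19.4% higher and 17.9% lower under panobinostat, and 19.2% higher and 18.4% lower under the combination. CDKN1A, encoding p21, read 6.14 and 6.10 under OTX015, 7.46 and 7.33 under panobinostat, 7.49 and 7.28 under the combination, and 3.96 and 3.90 in DMSO, with rises of 2.19, 3.47 and 3.46. CDKN1B, encoding p27, read 7.77 and 7.70 under OTX015, 5.81 and 5.65 under panobinostat, 5.42 on both combination arrays, and 7.21 and 6.93 in DMSO. CDKN1B fell under panobinostat (-1.34, adjusted p = 0.000117) and the combination (-1.65, adjusted p = 3.25e-05). It rose by 0.66 under OTX015 (adjusted p = 0.0145), a call lost without DMSO replicate 2 (adjusted p = 0.0775), OTX015 replicate 1 (adjusted p = 0.0836) or OTX015 replicate 2 (adjusted p = 0.0625). CDKN2A, encoding the CDK4/6 inhibitor p16, fell under panobinostat (-1.71) and the combination (-2.16). Its relatives CDKN2B and CDKN2D rose in each drug group. Under OTX015, panobinostat and the combination CDKN2B gave 0.98, 1.5 and 0.84, and CDKN2D gave 1.095, 0.83 and 0.76. CDKN1C, encoding p57, rose by 1.61 under the combination (adjusted p = 4.29e-05).

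Of 8 genes of the MuvB core and its partners, 3 were lower and 0 higher under OTX015, and 5 were lower and 1 higher under panobinostat and under the combination, where 8.49% of all genes were lower and 7.97% higher under OTX015, 17.9% and 19.4% under panobinostat, and 18.4% and 19.2% under the combination. FOXM1 and MYBL2, transcription factors that join MuvB in mitotic gene activation, fell under OTX015 (-1.19, adjusted p = 0.000638, and -0.97, adjusted p = 0.00134), panobinostat (-4.07 and -2.89) and the combination (-4.58 and -3.14). LIN9 fell under OTX015 (-0.95, adjusted p = 0.009), a call lost without OTX015 replicate 2 (adjusted p = 0.0643), and LIN37 gave 0.01 there. LIN9 fell (-1.92) and LIN37 rose (0.92) under panobinostat, and under the combination they moved by -2.13 and 1.70. Of 10 genes that govern D cyclin protein turnover, 4 were lower and 2 higher under OTX015, and 5 were lower and 2 higher under panobinostat and under the combination, to be read against the same shares of all genes. CUL4A, a scaffold of ubiquitin ligases, fell under panobinostat (-1.10) and the combination (-1.63), and FBXO31, a receptor for cyclin D1 degradation, rose in both (0.84 and 1.07). Under OTX015 CUL4A fell (-0.78, adjusted p = 0.0199) and FBXO31 rose (0.57, adjusted p = 0.0181), and both calls were lost without any 1 of the OTX015 and DMSO arrays (adjusted p = 0.0599 to 0.117). USP2, a cyclin D1 deubiquitinase, fell under OTX015 (-1.88), panobinostat (-1.86) and the combination (-1.68). CRYAB fell under OTX015 (-0.997, adjusted p = 0.0104), a call lost without DMSO replicate 2 (adjusted p = 0.0509) or OTX015 replicate 1 (adjusted p = 0.0641). CRYAB also fell under panobinostat (-2.02), and it averaged 2.78 under the combination, below the background level, against 5.70 in DMSO. FBXO4, counted among the lower genes, was under the background level in all 4 groups.

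Of 11 genes that induce D cyclins or carry the signals that do, 2 were higher and 2 lower under OTX015, 3 higher and 2 lower under panobinostat, and 3 higher and 3 lower under the combination. Over all genes 7.97% were higher and 8.49% lower under OTX015, 19.4% and 17.9% under panobinostat, and 19.2% and 18.4% under the combination. MYC, a transcription factor that promotes CDK4 and CCND2 expression, fell under OTX015 (-1.07), panobinostat (-2.82) and the combination (-3.62). AKT1, a kinase that stabilises cyclin D1, fell under panobinostat (-1.74) and the combination (-1.60). STAT3 rose in all 3 drug groups (1.65-fold under OTX015, 2.69-fold under panobinostat and 2.57-fold under the combination), and MTOR rose under panobinostat (0.96) and the combination (1.21). Under OTX015 MTOR gave 0.38 (adjusted p = 0.072) and AKT1 -0.26 (adjusted p = 0.325). PDGFRA was under the background level in all 4 groups.

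**Figure D4:**
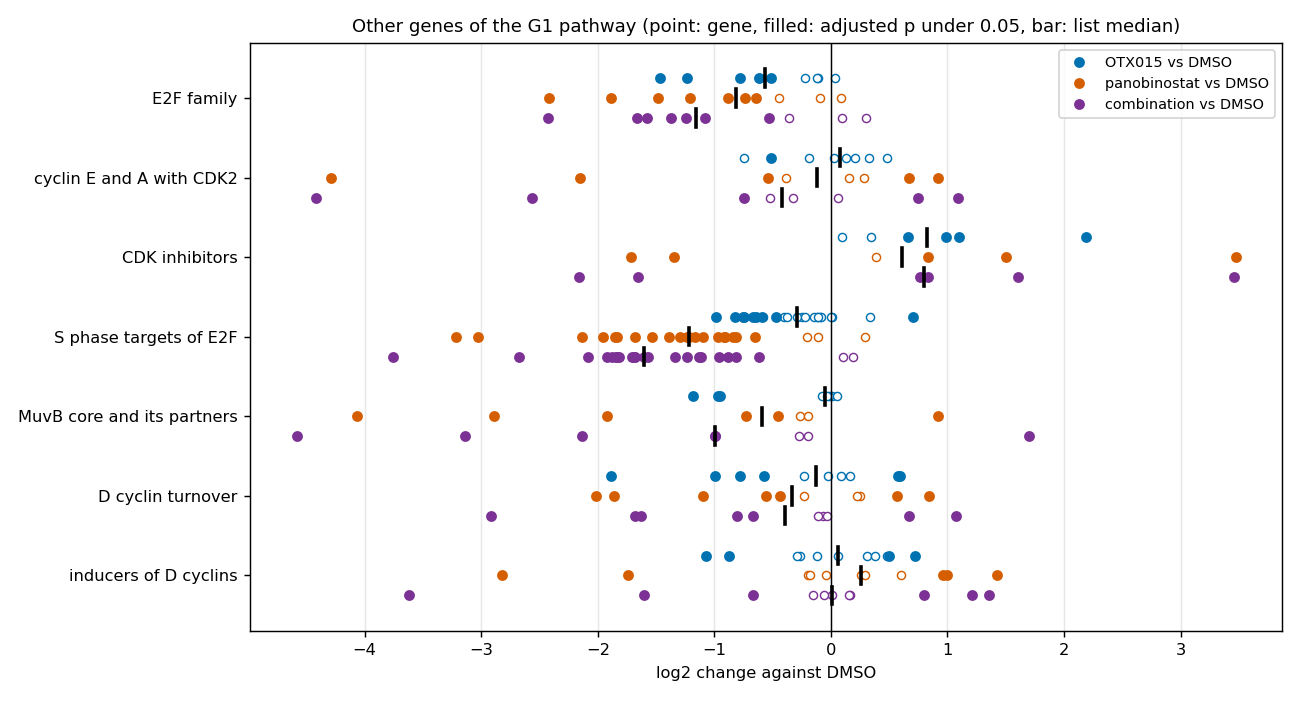
Log2 change against DMSO of the other genes of the G1 pathway, 1 point per gene, for OTX015, panobinostat and the combination (filled points passed adjusted p under 0.05; bars, list medians). The S phase targets had medians of -0.29, -1.22 and -1.61 in the 3 drug groups, while the CDK inhibitors lay on both sides of 0 in the 2 groups with panobinostat.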

How the data were processed

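Total RNA of 8 single-colour arrays was profiled, 2 for each of 4 groups taken from the sample titles. Per the submitters' processing notes, the authors ran RMA (affy 1.36.1, R 2.15.1), which gave the deposited log2 values; the array model is not given in the sources used here. RMA makes arrays alike in distribution, so a change in total RNA per cell would not be visible. Gene symbols came from the platform annotation, which named 22458 of 23786 probe sets, each with 1 symbol; 1328 were not named. Using limma 3.58.1 (R 4.3.3), 4 group means were fitted jointly to the 8 arrays, with 4 residual and 4.41 prior degrees of freedom, tested two-sided by lmFit and eBayes in 7 comparisons with Benjamini-Hochberg adjustment and no filter on low values. The procedure was tested on simulated data with few changed genes, in a single group, and independent noise. That setting does not cover the wide changes or the possibly technical duplicates here, so it does not vouch for these calls. The number of arrays limits the precision. The members, lists and tests were chosen with earlier results of these data known. Named pathway genes are up to 4 called genes per list with the largest changes against DMSO, plus E2F1, CCNE1, CCNE2, CDK2, MYC, CDKN1A and CDKN1B. CDKN2B, CDKN2D, TFDP1 and TFDP2 are named outside that rule, and their changes were not recomputed under the alternatives. Like patterns are the 3 nearest genes for members spanning at least 1. Alternatives are given in the closing section. Their extension to the named pathway genes and list counts was chosen after seeing the data. Of the planned lists, 1 CDK inhibitor and 1 S phase gene were not analysed here.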

Additional observations from a re-analysis of the deposited data

Results flagged for a closer look

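Among the 8 members, the effect of one drug differed with the other drug present, by the interaction term, for CCND2 (-1.03), RB1 (-0.84) and CDK4 (0.74). Of these, the CCND2 interaction also passed in each alternative at adjusted p under 0.05, and those of RB1 and CDK4 lost the call without most single arrays.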

How the results depend on the processing

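With all arrays 2, 6, 6, 4, 3, 6 and 3 of the 8 members passed for OTX015 vs DMSO, panobinostat vs DMSO, combination vs DMSO, combination vs OTX015, combination vs panobinostat, OTX015 vs panobinostat and interaction. Leaving out 1 array gave 0 to 1, 6 to 6, 4 to 6, 3 to 4, 1 to 3, 3 to 6 and 1 to 3 members, and 1885 to 3415, 6604 to 8240, 7023 to 8063, 4879 to 6824, 566 to 2251, 4695 to 6658 and 1631 to 2546 of all genes, in the same order. For OTX015 against DMSO the member count became 1 with arrays centred on their medians, 1 with only the groups compared and 1 with the replicate block, and 3 after quantile normalization and 3 with an intensity trend and robust moderation. Same-numbered arrays correlated at only 0.05 to 0.12 in their deviations from group means, and nothing in the labels says that a number marks a shared culture, so the arrays were not treated as paired. With only the groups compared, 1477 genes passed for the combination against panobinostat (2342 with all groups). At adjusted p under 0.01, 1739, 4455, 622, 4272 and 1145 genes passed for OTX015 vs DMSO, combination vs OTX015, combination vs panobinostat, OTX015 vs panobinostat and interaction. The members then numbered 0 for OTX015 against DMSO, 3 for OTX015 against panobinostat and 1 for the interaction.

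Of 2227 values recomputed for named genes, 23 changed sign, all of changes that did not pass. Centring on the median gave RBL2 -0.079 for panobinostat against DMSO, and CCND3 0.067 and RB1 0.101 for OTX015 against panobinostat. Quantile normalization gave TYMS -0.05 and CDK2 -0.04 for OTX015 against DMSO. With single arrays left out, panobinostat against DMSO ran from -0.159 to 0.074 for CCND3 and from -0.027 to 0.037 for RBL2. OTX015 against panobinostat ran from -0.119 to 0.065 for RB1 and from -0.177 to 0.055 for CCND3, the combination against panobinostat from -0.192 to 0.213 for RBL1, and the combination against OTX015 from -0.157 to 0.022 for CDK4. OTX015 against DMSO ran from -0.077 to 0.263 for CDKN2A, -0.019 to 0.03 for TYMS, -0.026 to 0.052 for LIN37, -0.004 to 0.076 for E2F1 and -0.388 to 0.018 for CDK7. Centring moved the mean change of all genes by -0.11 for the combination against OTX015 and by 0.13 for OTX015 against panobinostat, and the share of calls that were higher became 41% (51.1% without centring) and 59.6% (45.3% without). Under OTX015 the lower S phase targets numbered 2 to 10 and the lower E2F family genes 1 to 6 over the alternatives. Calls of E2F3, CDC25A, CDKN1B, CUL4A, FBXO31, MCM10, CRYAB and LIN9 under OTX015 were lost without at least 1 array. So were those of E2F8, CDK7 and CCNE1 under panobinostat. The cause was not tested.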
